A study of Mus musculus with 37 samples.

Results

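The insulin-like growth factor (IGF) system of the developing mouse kidney was followed through 10 genes: the ligand Igf1, the receptors Igf1r and Igf2r, and the binding proteins Igfbp1 to Igfbp7. They were chosen by name. The array carries 27 probe sets annotated to these genes alone, of 34945 probe sets with a single gene for 18193 genes. All 10 genes passed the filter on low values, as did 15709 genes in all, and 25 of the 27 probe sets passed it. A further probe set, annotated to both Igf2r and its antisense neighbour Airn, was not used.

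IGF1 and IGF2 are secreted ligands that signal through the tyrosine kinase receptor IGF1R, while IGF2R takes IGF2 into the cell for degradation. The secreted binding proteins hold the ligands away from the receptor or deliver them to it, and proteases such as PAPP-A release the ligands from them. In the embryonic kidney the ureteric bud grows into the mesenchyme and branches into the collecting ducts, while the mesenchyme around its tips condenses into renal vesicles, which become S-shaped bodies and then nephrons with a renal corpuscle and a proximal tubule.

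RNA of 9 components of wild-type CD-1 mouse kidneys was measured on 37 Affymetrix arrays. Metanephric mesenchyme (8 arrays) and ureteric bud (4) came from embryonic day E11.5 and renal vesicle (5) from E12.5. S-shaped body (4), renal corpuscle (4), proximal tubule (2), ureteric tip (3), medullary collecting duct (3) and medullary interstitium (4) came from E15.5. Each sample pooled about 50 sections of 5 kidneys. Amplification of the RNA took 2 rounds, and the sex of the embryos is not known. No mouse was mutated or treated, and component and embryonic day cannot be told apart where a comparison crosses days. The labels do not say that arrays of a component came from separate litters, so p-values measure the spread between these pools. A value below is log2(signal + 34.62) after quantile normalization, where signal is the deposited, scaled brightness of a probe set; levels of different probe sets are not compared. A change was called at a Benjamini-Hochberg adjusted p under 0.05 over all 15709 genes and an absolute log2 difference of 1 or more, in a limma fit of all 37 arrays.

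The labels were checked against cell type markers. Of the 37 arrays, 29 resembled another array of their own component most closely. The library labelled S-shaped body replicate 3 had a mean of 14.93 over 4 podocyte markers and 13.42 over 7 proximal tubule markers, and the library labelled renal corpuscle replicate 4 had 10.70 over the podocyte markers, where the other corpuscle arrays had at least 14.15. Both go against their labels, so calls of the 10 genes that rest on these doubted libraries are given with and without them. Calls of other genes of the pathway that were lost without both are named as such. Of the mesenchyme arrays, 3 are titled as laser capture and 4 as dissection or collagenase, as are all 4 ureteric bud arrays, although the protocol text states laser capture for all. The titles of 28 arrays carry 13 different dates, whose meaning is not stated; renal vesicle shares no date with mesenchyme or S-shaped body, so date and component cannot be told apart in those comparisons.

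Of the 10 genes, 9 differed among the 9 components (limma F test, adjusted p under 0.05), where 49.9% of all genes did. Igfbp7 had the smallest p (adjusted p = 2.05e-16) and a range of 5.57 between its lowest and highest component mean, and Igfbp1 had the widest range, 8.45 (adjusted p = 2.8e-07). Igf1r did not pass (range 0.54, adjusted p = 0.67), and Igfbp4 passed with a range of only 0.71 (adjusted p = 0.00547). The median range of the 10 genes was 3.32, against 1.79 over all genes.

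**Figure D1:**
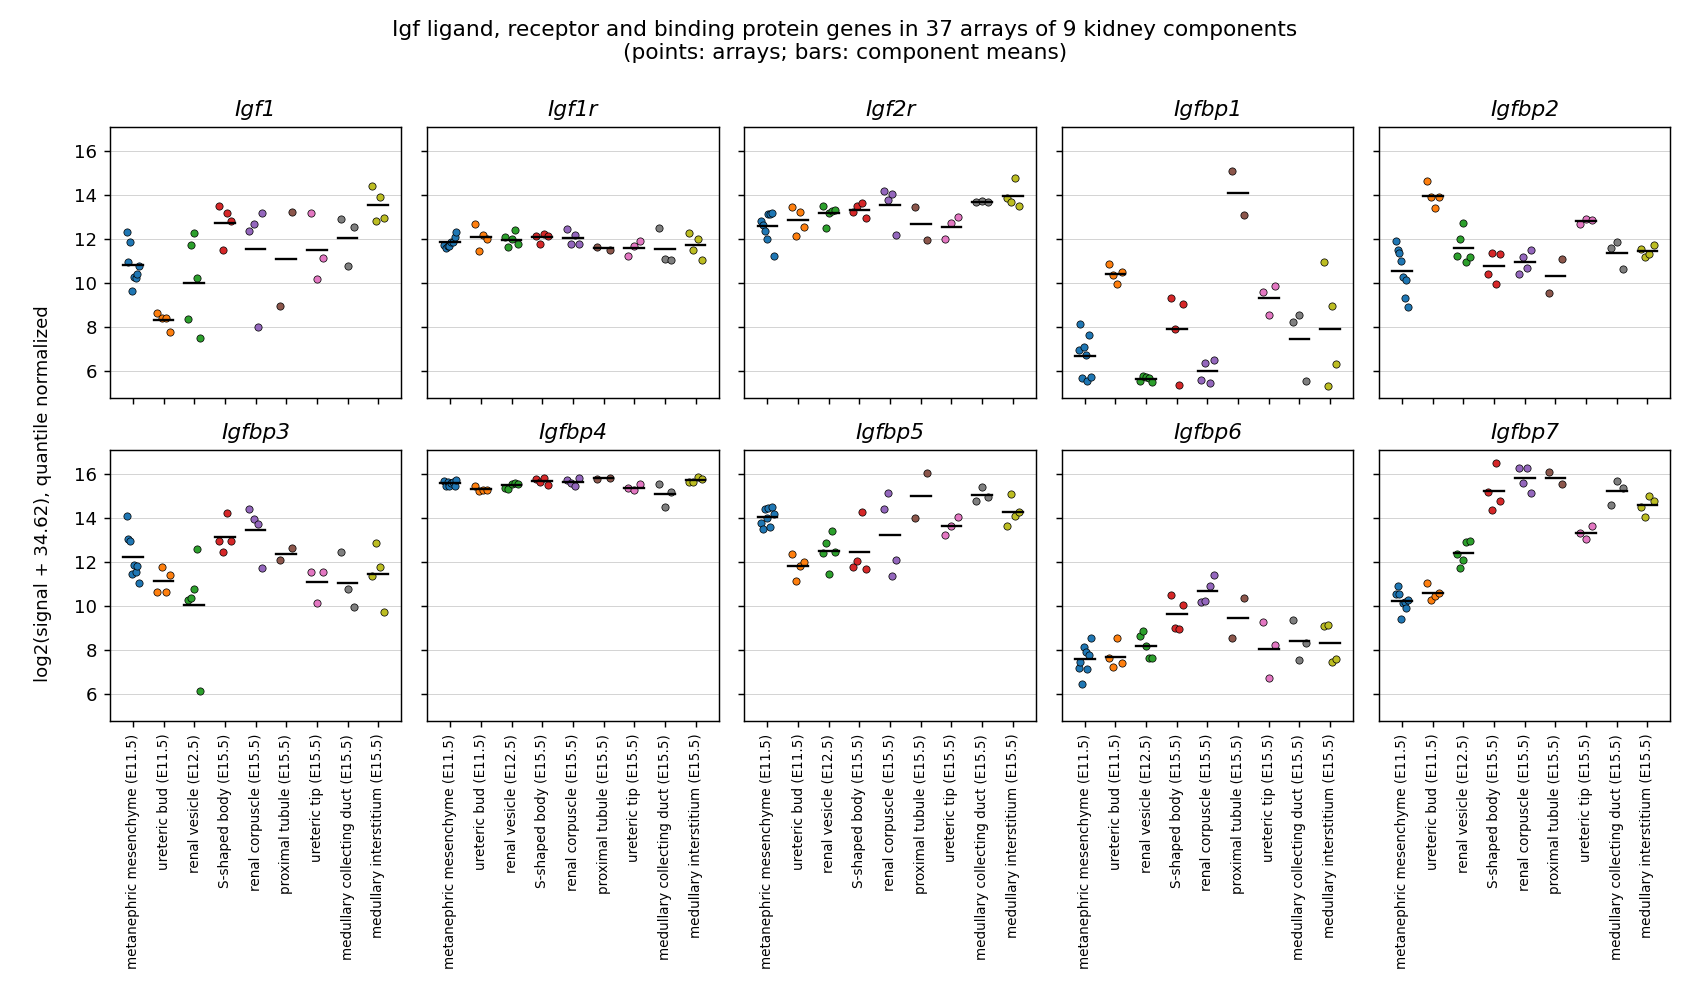
Each panel plots 1 gene, by its probe set with the highest mean, in all 37 arrays; the vertical axis is log2(signal + 34.62) after quantile normalization, points are arrays and bars are component means. Igfbp1 is highest in both proximal tubule arrays (13.10 and 15.09), Igfbp2 in the 4 ureteric bud arrays (13.39 to 14.64), and Igfbp7 lies between 9.40 and 11.05 in all E11.5 arrays and at 13.05 or more in all E15.5 arrays.

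On the probe sets used, every change called between components was of a binding protein, and none was of Igf1, Igf1r or Igf2r. In ureteric bud against mesenchyme, 3 of the 10 genes were called (2 higher, 1 lower; 8.15% of all genes). In renal vesicle against mesenchyme 3 were called (1 higher, 2 lower; 11.9% of all genes), and in S-shaped body against renal vesicle 2 were called (2 higher, 0 lower; 4.99%). In ureteric tip against medullary collecting duct 1 was called (0 higher, 1 lower), where 0.356% of all genes were. Against the other E15.5 components, renal corpuscle had 2 called genes (1 each way; 5.4% of all genes), proximal tubule 1 (higher; 15.2%), S-shaped body 1 (lower; 1.46%) and ureteric tip 2 (1 each way; 1.6%). None was called by limma in medullary collecting duct against medullary interstitium (4.46% of all genes; 1 at an unadjusted p under 0.05), in medullary interstitium against the other E15.5 components (6.11%; 3 unadjusted) or in medullary collecting duct against them (1.9%; 3 unadjusted). The difference between duct and surrounding tissue changed from E11.5 to E15.5 for 2 genes (1 each way; 1.39% of all genes). Comparisons with the same component in them share its arrays. Of these 17 calls, 12 were in comparisons where the title date could be fitted as a fixed term over 28 dated arrays. All 12 were lost in that fit, 6 of them under that alternative alone, and none changed sign. In that fit ureteric bud against mesenchyme rested on 1 bud and 1 mesenchyme array of the same title date. The differences there were 4.41 for Igfbp1, 4.06 for Igfbp2 and -1.81 for Igfbp5. Whether the date or the smaller number of arrays cost the calls was not tested. The other 5 of the 17 calls were in renal vesicle against mesenchyme and S-shaped body against renal vesicle, where the date term could not be fitted. Of those 5, the 2 of Igfbp7 held under the alternatives that were run and the others did not; a second Igfbp7 probe set was called in neither comparison.

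**Figure D2:**
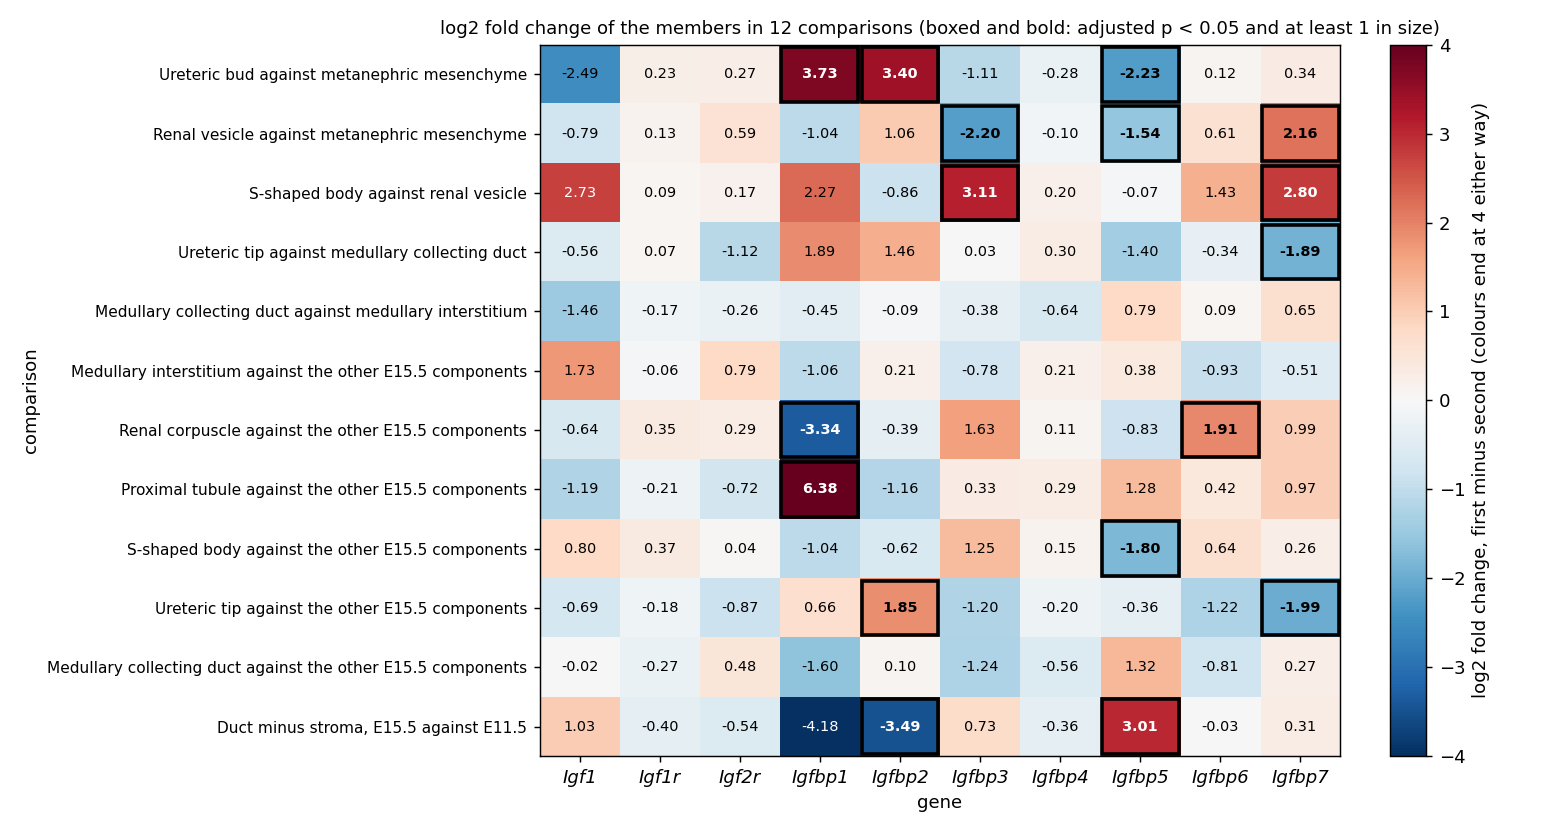
Rows are the 12 comparisons and columns the 10 genes; each cell gives the log2 fold change, first component minus second, coloured red where higher and blue where lower, with the colours ending at 4 in size. Boxed values passed the call; they include 6.38 for Igfbp1 in proximal tubule and all lie in the columns of Igfbp1, Igfbp2, Igfbp3, Igfbp5, Igfbp6 and Igfbp7.

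Igf1, the ligand, had its lowest mean in the ureteric bud and its highest in the medullary interstitium on the probe set used, 1437401_at. Of its 4 probe sets, 2 had their lowest mean in the bud and 3 their highest in the interstitium. The lowest mean was in proximal tubule for 1419519_at (7.30, bud 7.32) and in medullary collecting duct for 1434413_at (8.07, bud 8.43), and the highest in S-shaped body for 1452014_a_at (9.50, interstitium 9.40). The 4 ureteric bud arrays read 8.62, 8.42, 8.42 and 7.80, all below the lowest of the 8 mesenchyme arrays (lowest 9.66, median 10.59, highest 12.30). The difference of -2.49 (SE 0.82) missed the call (limma adjusted p = 0.0535). It passed in a fit of these components alone (adjusted p = 0.000289) and without the 2 doubted libraries (adjusted p = 0.0471). Another Igf1 probe set, 1419519_at, was called lower in the bud (-2.0, SE 0.61, adjusted p = 0.04), while 1434413_at (-2.23, adjusted p = 0.123) and 1452014_a_at (-1.47, adjusted p = 0.243) were not called.

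In medullary interstitium, Igf1 read 14.40, 12.82, 13.90 and 12.97, where the means of 8 interstitial markers lay between 13.85 and 14.15, the highest median of any component. The other E15.5 components overlapped it: S-shaped body read 13.48, 11.52, 13.18 and 12.80, medullary collecting duct 12.90, 10.76 and 12.53, and ureteric tip 13.16, 10.18 and 11.16. In the same order of arrays, the interstitial marker means were 12.74, 10.76 and 11.90 in collecting duct and 12.63, 10.52 and 11.94 in tip. Those of S-shaped body were 11.14, 11.06, 13.90 and 11.08. The part of interstitial RNA in these Igf1 values was not tested. Against the mean of the other E15.5 components the interstitium differed by 1.73 (SE 0.76, limma adjusted p = 0.175), while 1419519_at was called higher (2.12, SE 0.56, adjusted p = 0.0179). Probe sets 1434413_at (2.30, adjusted p = 0.0661) and 1452014_a_at (0.60, adjusted p = 0.652) were not called. Probe set 1434413_at of Igf1 was called lower in medullary collecting duct than in interstitium (-3.57, SE 1.02, adjusted p = 0.0415) and lower in renal vesicle than in mesenchyme (-2.56, SE 0.76, adjusted p = 0.0226). Igf1 varied widely within components: the 5 renal vesicle arrays read 8.36, 11.71, 12.27, 10.23 and 7.52, both proximal tubule arrays 8.95 and 13.22, and renal corpuscle 12.35, 12.69, 7.99 and 13.16. Every pair of neighbours in the order of its 9 component means overlapped.

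Igf1r, the signalling receptor, showed no called difference on the probe set used, and its probe sets disagreed. Array values of 1452982_at ran from 11.03 to 12.68, and component means from 11.54 in medullary collecting duct to 12.07 in ureteric bud, with every neighbouring pair overlapping. The correlation of this probe set with the other 4 over 37 arrays was 0.41, 0.01, -0.04 and -0.03. Of those 4, 1446303_at (adjusted p = 0.00951) and 1452108_at (adjusted p = 0.0465) differed among components. In renal vesicle against mesenchyme 1452108_at was called lower (-1.34, SE 0.45, adjusted p = 0.0448), and in proximal tubule 1428967_at was called lower (-1.98, SE 0.64, adjusted p = 0.0281). Centring each array on its median in place of quantile normalization also brought 1452982_at past the threshold among components (adjusted p = 0.00215).

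Igf2r, the clearance receptor for IGF2, differed modestly among components (range 1.39, adjusted p = 0.0221). It read 13.86, 13.68, 14.77 and 13.51 in medullary interstitium and 13.69, 13.71 and 13.67 in medullary collecting duct, the highest means, and 11.22 to 13.20 (median 12.74) in mesenchyme. No pairwise comparison of the probe set used was called, and the F test was lost without medullary interstitium replicate 3 (range 1.12, adjusted p = 0.0568) and with median centring (adjusted p = 0.122). The second probe set, 1424112_at, correlated with it at 0.38 over 37 arrays. It was called higher in renal vesicle than in mesenchyme (1.67, SE 0.41, adjusted p = 0.00669) and lower in proximal tubule than in the other E15.5 components (-2.04, SE 0.54, adjusted p = 0.00732).

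**Figure D3:**
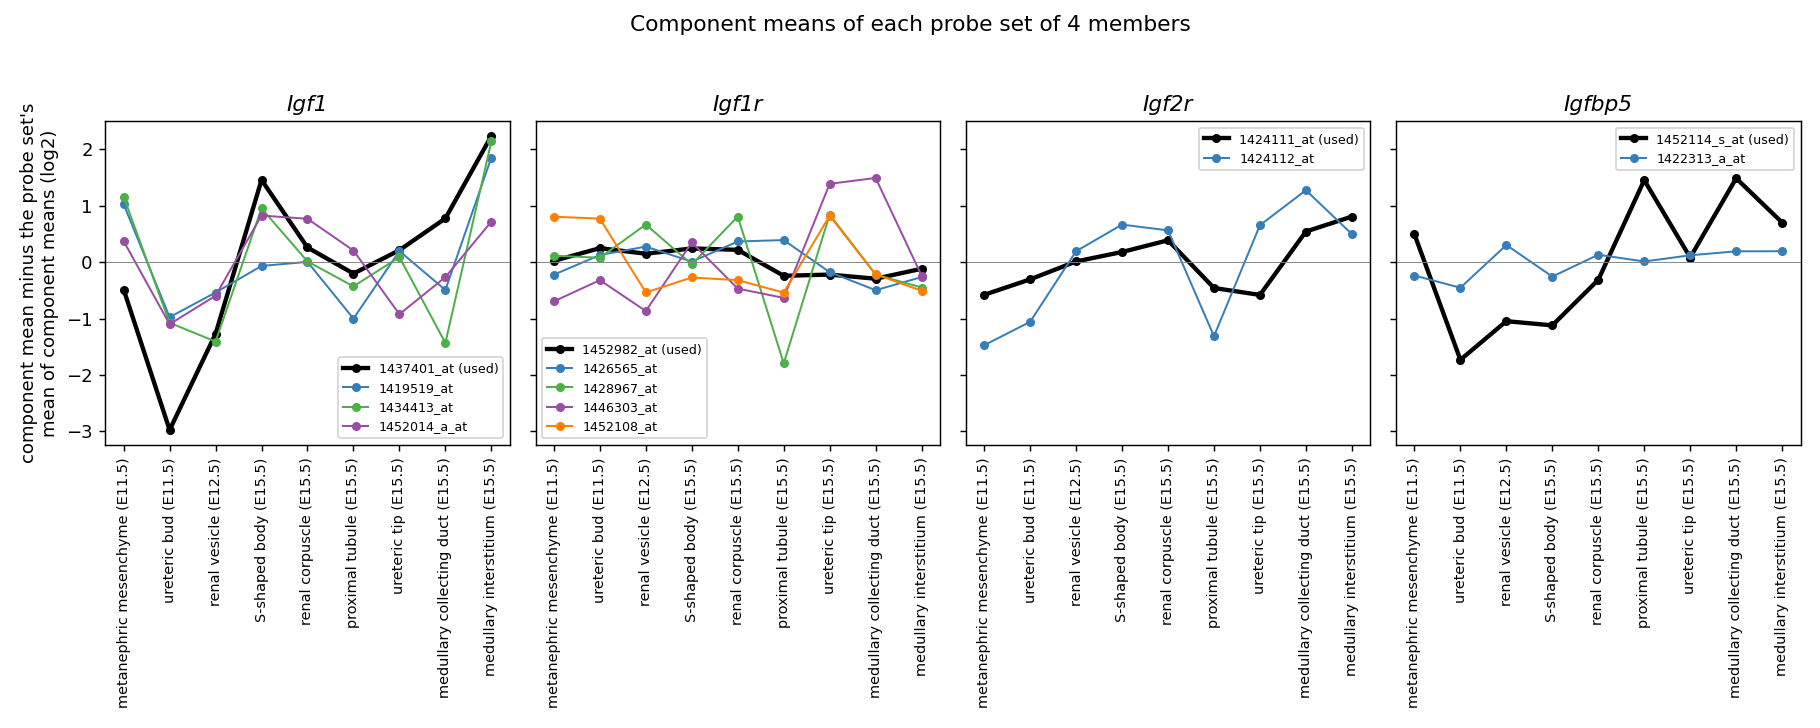
Each line is 1 probe set; the vertical axis is its mean in each component minus its own mean over the 9 components, on the log2 scale, and thick black lines mark the probe sets used. The 5 probe sets of Igf1r cross one another, the second of Igfbp5 (1422313_a_at) is nearly flat while 1452114_s_at is not, and the 4 probe sets of Igf1 are all below their own mean in ureteric bud and above it in medullary interstitium.

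Igfbp1, a binding protein known for its induction in fasting liver and its repression by insulin, had its highest level in the proximal tubule. Both proximal tubule arrays read 15.09 and 13.10 (deposited signals 47060 and 8615), above all 35 others. The 4 ureteric bud arrays followed at 10.86, 10.36, 9.98 and 10.48, and the ureteric tip at 9.58, 8.54 and 9.87. The 5 renal vesicle arrays read 5.56, 5.77, 5.72, 5.68 and 5.50, with deposited signals of 7.88 to 15.30, under the offset of 34.62, so this end of the scale is set by the offset.

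Proximal tubule exceeded the mean of the other E15.5 components by 6.38 (SE 0.88, limma adjusted p = 2.38e-06). Without both doubted libraries the difference was 6.25 (adjusted p = 9.28e-07). With either proximal tubule array alone it was 5.39 or 7.38, the lone array being assumed to vary like the others. Fitted with a term for title date, the difference was 4.19 (SE 1.38, adjusted p = 0.144), which is no call. Within dates proximal tubule was also highest, while the order of the other components was not that of their means: in the title date that holds proximal tubule replicate 2 (13.10), medullary interstitium read 10.97, ureteric tip 9.87, medullary collecting duct 8.53 and S-shaped body 7.91, and in the date of replicate 1 (15.09), ureteric bud read 9.98 and mesenchyme 5.57. The means of 7 proximal tubule markers were 15.06 and 14.02 in these arrays. In replicate 3 of those labelled S-shaped body, where the same markers averaged 13.42, Igfbp1 read 5.39.

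Ureteric bud exceeded mesenchyme by 3.73 (SE 0.73, adjusted p = 0.000407), with mesenchyme arrays at 5.57 to 8.12 (median 6.85), below every bud array. Renal corpuscle, at 5.61, 6.38, 5.48 and 6.51, was lower than the other E15.5 components (-3.34, SE 0.67, adjusted p = 0.00213). Without both doubted libraries that difference was -3.68 (adjusted p = 0.000864). The call was lost with array weights (-3.14, adjusted p = 0.0545) and with the date term (-2.82, adjusted p = 0.361). S-shaped body read 9.31, 7.91, 5.39 and 9.06; its difference of 2.27 (SE 0.80) from renal vesicle was not called (adjusted p = 0.0905), and without the doubted libraries, which removes the array at 5.39, it was 3.11 (adjusted p = 0.0253). Medullary interstitium spread from 5.34 to 10.97, and its highest array was also the highest of the 4 in ureteric epithelium markers (mean of 7 markers 12.63, the others 8.86 to 11.08); the part of such RNA in the value was not tested.

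The bases just upstream of the Igfbp1 start (RefSeq, GRCm38.p6, chr11:7197637-7197786, plus strand) are shown because Igfbp1 moved most and because the insulin response element of this promoter is a textbook case of repression by insulin. Capitals mark CAAAACAA, then CAAAATAA on the other strand (written TTATTTTG), then GTTAAT on the other strand (written ATTAAC).

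Igfbp1: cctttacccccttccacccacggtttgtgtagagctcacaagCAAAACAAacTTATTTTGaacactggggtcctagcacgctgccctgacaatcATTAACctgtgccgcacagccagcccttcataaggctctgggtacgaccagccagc

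These words were searched on both strands in the 250 bases before 32851 RefSeq starts; the marked words do not overlap one another. CAAAACAA occurs in 2.21% of all these windows, CAAAATAA in 1.49%, GTTAAT in 6.43%, and CAAAACAA together with CAAAATAA in 23 windows (0.07%). In Igfbp1 CAAAACAA lies 108 to 101 bases before the start, TTATTTTG 98 to 91 and ATTAAC 56 to 51. None of the other 9 genes has CAAAACAA or CAAAATAA in its window. A match describes the letters only, and binding was not measured.

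Igfbp2, a binding protein abundant in fetal tissues, was highest in the ureteric bud and, at E15.5, in the ureteric tip. The 4 ureteric bud arrays read 14.64, 13.89, 13.39 and 13.92 and the 3 ureteric tip arrays 12.69, 12.89 and 12.87. Medullary collecting duct, further along the same tree, read 11.57, 11.88 and 10.63. The bud lay above all 33 other arrays, and the next array down was a ureteric tip.

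Ureteric bud exceeded mesenchyme by 3.40 (SE 0.44, limma adjusted p = 1.01e-06). The difference ran from 2.53 to 4.29 over the alternative settings, which include either kind of mesenchyme array alone. The call was lost with the date term only. Ureteric tip exceeded the other E15.5 components by 1.85 (SE 0.46, limma adjusted p = 0.0269), and by 1.84 without the doubted libraries (adjusted p = 0.0203). The call was lost without any 1 of the 3 tip arrays (adjusted p = 0.107 to 0.219) and with median centring (1.5, adjusted p = 0.0893). Tip was highest in each of the 3 title dates that hold it: 12.89 against 10.63 and 10.42, 12.87 against 11.08 to 11.88, and 12.69 against 11.73. The difference of 1.46 between tip and medullary collecting duct was not called (SE 0.59, adjusted p = 0.613), although the 3 arrays of each did not overlap.

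In mesenchyme Igfbp2 ran from 8.93 to 11.90 and split by how the tissue was obtained. The 3 arrays titled laser capture read 11.90, 11.38 and 11, and the 4 titled dissection or collagenase 8.93 to 10.27. The array without such a title lay between the values of 11.38 and 11.90. The mean of 7 ureteric epithelium markers was 9.44 to 11.17 in the laser capture arrays, 6.96 to 7.66 in the dissected ones and 11.32 in the untitled one. Renal vesicle arrays, at 11.22, 11.98, 12.71, 10.95 and 11.20, were not called against all mesenchyme (1.06, SE 0.41, adjusted p = 0.0803), but were called against the dissected or collagenase mesenchyme alone (1.95, SE 0.41, adjusted p = 0.00178). The part of ureteric RNA in these values was not tested.

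**Figure D4:**
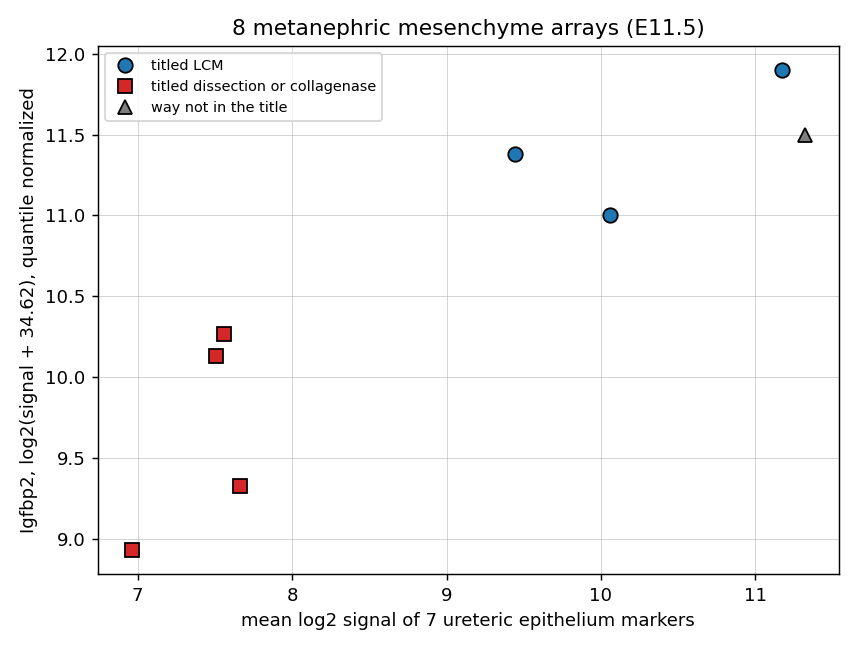
Each point is 1 of the 8 E11.5 mesenchyme arrays; the horizontal axis is the mean log2 signal of 7 ureteric epithelium markers and the vertical axis Igfbp2 on the log2 scale, with symbols for the way of obtaining tissue named in the title. The 4 dissection or collagenase arrays sit at 6.96 to 7.66 on the marker axis with Igfbp2 at 10.27 or less, and the others at 9.44 or more with Igfbp2 above all 4 of those.

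Igfbp5, a binding protein that also attaches to extracellular matrix, was high in mesenchyme and low in ureteric bud at E11.5, and had its highest mean in the medullary collecting duct of E15.5. Ureteric bud read 12.37, 11.13, 11.80 and 12.01, all below the mesenchyme arrays at 13.51 to 14.51 (median 14.09). Medullary collecting duct read 14.75, 15.42 and 14.96, and medullary interstitium 13.62, 15.08, 14.07 and 14.27, which overlapped it. The proximal tubule arrays, at 13.98 and 16.04, lay below and above it. Igfbp5 was lower in bud than in mesenchyme (-2.23, SE 0.50, limma adjusted p = 0.00223) and not called between duct and interstitium (0.79).

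The difference between duct and surrounding tissue changed in opposite directions for Igfbp2 and Igfbp5. For Igfbp2 it went from 3.40 at E11.5 to -0.09 at E15.5, a change of -3.49 (SE 0.71, adjusted p = 0.00498). For Igfbp5 it went from -2.23 to 0.79, a change of 3.01 (SE 0.80, adjusted p = 0.0464). The Igfbp5 change sat at the threshold: it missed the call without 17 of 19 arrays left out in turn (adjusted p up to 0.149), and when probe sets in place of genes were tested. Its call was also lost under 6 of 12 other settings. Among them were median centring (2.13, limma adjusted p = 0.182) and the title number as a block (3.02, adjusted p = 0.116). For Igfbp1 the change was -4.18 (SE 1.16, adjusted p = 0.0628), and it was called without both doubted libraries (adjusted p = 0.0314). The 2 days differ in the components sampled as well as in age. They also differ in the way of obtaining tissue named in the titles. All 4 bud arrays and 4 mesenchyme arrays are titled dissection or collagenase, and no E15.5 array is. Component, age and way of obtaining tissue cannot be told apart in this change.

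**Figure D5:**
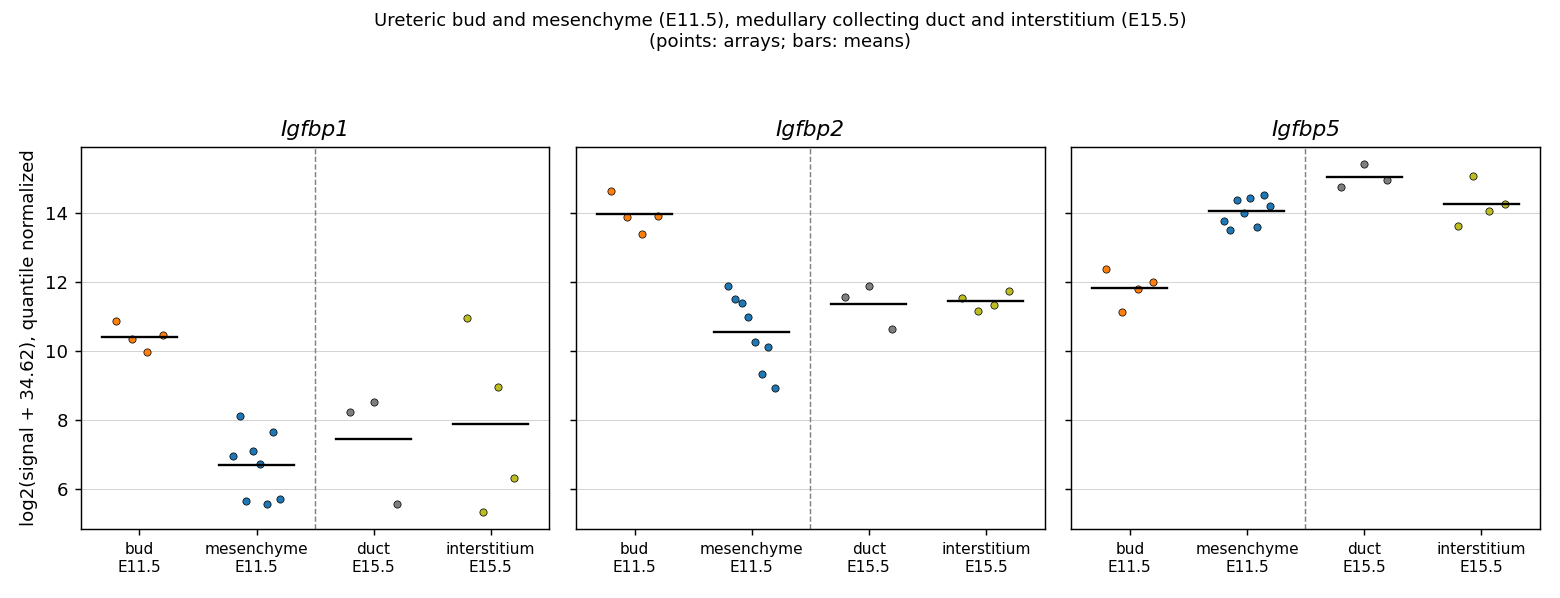
Igfbp1, Igfbp2 and Igfbp5 in ureteric bud and mesenchyme of E11.5 (left of each dashed line) and in medullary collecting duct and interstitium of E15.5 (right); the vertical axis is log2(signal + 34.62) after quantile normalization, points are arrays and bars means. At E11.5 bud and mesenchyme do not overlap for any of the 3 genes; at E15.5 duct and interstitium overlap for all of them.

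Igfbp2 and Igfbp5 are next to each other among the protein-coding genes of GRCm38.p6 and face each other by their last exons. Their correlation over the 37 arrays was -0.4. Their upstream bases are shown because of their opposite levels in bud and mesenchyme: Igfbp2 at chr1:72824330-72824479 on the plus strand, the more upstream of its 2 starts, and Igfbp5 at chr1:72874866-72875015 on the minus strand, both RefSeq, GRCm38.p6, with no letters marked.

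Igfbp2: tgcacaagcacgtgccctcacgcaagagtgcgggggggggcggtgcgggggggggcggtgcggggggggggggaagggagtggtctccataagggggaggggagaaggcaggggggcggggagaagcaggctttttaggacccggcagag

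Igfbp5: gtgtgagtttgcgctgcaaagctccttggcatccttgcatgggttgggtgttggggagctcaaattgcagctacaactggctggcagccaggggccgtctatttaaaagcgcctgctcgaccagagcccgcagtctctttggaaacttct

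The 250 bases before the start hold 14 CpG pairs and 67.2% G or C in Igfbp2, and 10 and 58.8% in Igfbp5, where the medians over all 32851 windows are 6 and 52.4%. Neither window holds TATAAA on either strand, which 12.4% of all windows do.

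Igfbp5 was also lower in renal vesicle, at 12.40, 12.85, 11.45, 13.42 and 12.44, than in mesenchyme, with no overlap (-1.54, SE 0.47, adjusted p = 0.0226). That call was lost without renal vesicle replicate 1 (adjusted p = 0.0514) or 3 (adjusted p = 0.0856), against laser capture mesenchyme (adjusted p = 0.2) or dissected mesenchyme (adjusted p = 0.0506) alone, and with the title number as a block (adjusted p = 0.176). S-shaped body read 11.78, 12.03, 14.28 and 11.66, the value of 14.28 being the library labelled replicate 3, and was lower than the other E15.5 components (-1.80, SE 0.46, adjusted p = 0.0334). Without both doubted libraries the difference was -2.49 (adjusted p = 0.00103). The call was lost without 6 of 20 arrays left out in turn, among them S-shaped body replicates 1, 2 and 4 (adjusted p = 0.187, 0.111 and 0.189). It was also lost with median centring (adjusted p = 0.0696), in a fit of the E15.5 arrays alone (adjusted p = 0.201), with the title number as a block (adjusted p = 0.0571) and with the date term (adjusted p = 1). Renal corpuscle split into 14.39, 15.14, 11.37 and 12.08. The second probe set, 1422313_a_at, did not follow (correlation -0.05, F test adjusted p = 0.795), so these Igfbp5 results rest on 1452114_s_at.

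Igfbp7, a secreted protein related to the family that binds IGFs weakly and is abundant in vessels and epithelia, rose from mesenchyme to renal vesicle and again to S-shaped body on the probe set used, 1423584_at, and not by a call on its second probe set. Mesenchyme read 9.40 to 10.93 (median 10.23), renal vesicle 12.38, 11.72, 12.09, 12.91 and 12.95, S-shaped body 15.19, 14.37, 16.51 and 14.76, and renal corpuscle 16.27, 15.59, 16.28 and 15.14. Mesenchyme, renal vesicle and S-shaped body did not overlap, nor did renal vesicle and the ureteric tip above it in the order of components. Renal vesicle exceeded mesenchyme by 2.16 (SE 0.30, limma adjusted p = 8.72e-06) and S-shaped body exceeded renal vesicle by 2.80 (SE 0.35, adjusted p = 3.12e-06). Without the doubted libraries the latter was 2.36 (adjusted p = 2.74e-05). The second probe set, 1423585_at (correlation 0.77), gave 1.15 (SE 0.41, adjusted p = 0.0559) for the first step and 0.31 (SE 0.48, adjusted p = 0.778) for the second, neither called. These steps also cross from E11.5 to E12.5 and E15.5.

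In the ureteric tree Igfbp7 was low in the bud (11.05, 10.27, 10.45 and 10.59), intermediate in the tip (13.30, 13.05 and 13.65) and high in the medullary collecting duct (14.59, 15.69 and 15.37). Tip was the lowest E15.5 component, below every other E15.5 array (-1.99, SE 0.33, limma adjusted p = 0.000763). Without both doubted libraries the difference was -1.95 (adjusted p = 0.000245). Tip was lowest in each of the 3 title dates that hold it: 13.05 against 15.37 and 16.27, 13.65 against 14.37 to 15.69, and 13.30 against 14.75. Against medullary collecting duct alone the difference was -1.89 (SE 0.43, adjusted p = 0.0358), a call lost without 5 of 6 arrays left out in turn (adjusted p up to 0.389). Among the E15.5 components 1423585_at was called higher in renal corpuscle (1.92, SE 0.40, adjusted p = 0.00398) and proximal tubule (1.86, SE 0.53, adjusted p = 0.0128), and lower in medullary interstitium (-1.65, SE 0.40, adjusted p = 0.00994) and ureteric tip (-1.73, SE 0.45, adjusted p = 0.0391), and not called in tip against collecting duct (-1.82, SE 0.58, adjusted p = 0.354). On the probe set used, renal corpuscle missed the call by size (0.99, SE 0.30, adjusted p = 0.0389), with 1.31 without the doubted libraries (adjusted p = 0.00377). The upstream bases of Igfbp7 are shown as those of the gene with the smallest p over all components (RefSeq, GRCm38.p6, chr5:77408046-77408195, minus strand, no letters marked); the 250-base window holds 26 CpG pairs and 74.0% G or C.

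Igfbp7: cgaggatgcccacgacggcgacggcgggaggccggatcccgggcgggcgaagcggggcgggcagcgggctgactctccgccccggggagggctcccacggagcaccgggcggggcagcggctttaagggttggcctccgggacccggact

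Igfbp3, the main carrier of IGFs in serum and also made by endothelium, was lowest in renal vesicle and highest in renal corpuscle and S-shaped body. Renal vesicle read 10.27, 10.36, 10.76, 12.61 and 6.13, mesenchyme 11.04 to 14.10 (median 11.84), S-shaped body 12.96, 12.45, 14.21 and 12.93, and renal corpuscle 14.42, 13.96, 13.71 and 11.72. The renal vesicle array at 12.61 lay within the mesenchyme and S-shaped body arrays, and the other 4 below both. Renal vesicle was lower than mesenchyme (-2.20, SE 0.68, limma adjusted p = 0.0247) and S-shaped body higher than renal vesicle (3.11, SE 0.80, adjusted p = 0.018).

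Both calls were lost without renal vesicle replicate 5, the array at 6.13 (-1.23, adjusted p = 0.164, and 2.14, adjusted p = 0.0595). The first was also lost without mesenchyme replicate 1 (adjusted p = 0.0519), with either kind of mesenchyme array alone (adjusted p = 0.0918 and 0.21) and with the title number as a block (adjusted p = 0.107), and the second without the doubted libraries (2.75, adjusted p = 0.0634). Fits of only the components compared lost both (adjusted p = 0.0632 and 0.179). The second probe set, 1458268_s_at, followed closely (correlation 0.95), with differences of -1.5 (SE 0.51, adjusted p = 0.0462) for the first comparison and 2.19 (SE 0.60, adjusted p = 0.022) for the second. The mean of 7 endothelial markers lay between 7.63 and 9.46 in renal vesicle, 8.47 and 10.60 in mesenchyme, 9.13 and 11.02 in S-shaped body and 9.31 and 11.83 in renal corpuscle; its part in the Igfbp3 values was not tested. Renal corpuscle was not called against the other E15.5 components (1.63, SE 0.67, adjusted p = 0.146), and was without the doubted libraries (2.28, adjusted p = 0.0469).

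Igfbp6, which prefers IGF2 over IGF1, was highest in renal corpuscle. The 4 corpuscle arrays read 10.20, 10.22, 10.90 and 11.42, S-shaped body 10.5, 8.99, 8.94 and 10.07, and proximal tubule 8.53 and 10.35. Medullary interstitium (7.44 to 9.16), medullary collecting duct (7.54 to 9.36) and ureteric tip (6.72 to 9.27) lay below all corpuscle arrays, and 1 S-shaped body array and 1 proximal tubule array reached into them. Renal corpuscle exceeded the other E15.5 components by 1.91 (SE 0.44, limma adjusted p = 0.00754), and by 1.62 without the doubted libraries (adjusted p = 0.0373). It was the highest in each of the 3 title dates it shares: 10.20 against 8.34 and 6.72, 10.22 against 7.44, and 10.90 against 9.36. The call was lost in a fit of the E15.5 arrays alone (adjusted p = 0.0603), with array weights (adjusted p = 0.148) and with the date term (adjusted p = 0.371).

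Igfbp4, a binding protein cleaved by PAPP-A, was bright in every array and varied little. Array values ran from 14.50 to 15.84, and component means from 15.08 in medullary collecting duct to 15.79 in proximal tubule. No difference reached 1 in size, although medullary collecting duct was below the other E15.5 components by a small amount (-0.56, SE 0.13, adjusted p = 0.0108). With median centring in place of quantile normalization the same difference was -1.34 (SE 0.20, adjusted p = 7.08e-05) and proximal tubule was higher by 1.39 (SE 0.24, adjusted p = 5.65e-05). The dimmer probe set 1421992_a_at gave -1.34 (SE 0.33, adjusted p = 0.0281) and 1.64 (SE 0.39, adjusted p = 0.00327) for the same comparisons, while 1423756_s_at and 1423757_x_at did not differ by a call among components (F test adjusted p = 0.241 and 0.246). In its promoter window TATAAA lies 28 to 23 bases before the start.

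The wider pathway was read from a list of 28 genes, of which 25 passed the filter; 15 of them differed among components (49.9% of all genes did), with a median range of 2.18 against 1.79 over all genes. In ureteric bud against mesenchyme 5 of the 25 were called (3 higher, 2 lower; 8.15% of all genes), in renal vesicle against mesenchyme 4 (all lower; 11.9%) and in S-shaped body against renal vesicle 3 (2 higher, 1 lower; 4.99%). In ureteric tip against collecting duct 1 was called (lower; 0.356%) and in collecting duct against interstitium 2 (both higher; 4.46%). Against the other E15.5 components, renal corpuscle had 1 (lower; 5.4%), proximal tubule 3 (1 higher, 2 lower; 15.2%), S-shaped body 1 (higher; 1.46%) and ureteric tip 2 (1 each way; 1.6%). None was called by limma for medullary interstitium (6.11%; 3 at an unadjusted p under 0.05) or medullary collecting duct (1.9%; 4 unadjusted). For the change of duct against surrounding tissue 3 were called (2 higher, 1 lower; 1.39%). Against the other E15.5 components, the list's called share was below that of all genes in renal corpuscle, proximal tubule, medullary interstitium and collecting duct. Of these 25 calls, 4 held with each array left out in turn: Irs4, Grb14 and Foxo3 in ureteric bud and Foxo3 in renal vesicle, each against mesenchyme. All 25 were lost under at least 1 of the other alternatives.

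Igf2, the main ligand of the embryo, was bright everywhere (component means 13.72 to 15.16) and was highest in medullary collecting duct. It read 15.06, 15.11 and 15.30 there at its lowest, median and highest array, and 13.36, 13.86 and 13.94 in ureteric tip, with no overlap. Tip was lower than duct (-1.44, SE 0.28, limma adjusted p = 0.0079) and lower than the other E15.5 components together (-1.01, SE 0.21, adjusted p = 0.00869). The difference between duct and surrounding tissue changed by 1.31 from E11.5 to E15.5 (SE 0.33, adjusted p = 0.0318). The first of these was lost without ureteric tip replicate 1 or medullary collecting duct replicate 3, the second without 6 of 20 arrays and the third without 9 of 19, and all 3 with the Igf2 probe set of largest variance.

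Irs4, an adaptor of insulin and IGF receptors, lay at 10.80 to 12.07 in ureteric bud and 6.80 to 9.15 in mesenchyme (3.21, SE 0.53, adjusted p = 4.89e-05). Grb14, an inhibitory adaptor of the insulin receptor, was higher in bud than in mesenchyme (1.99, SE 0.48, adjusted p = 0.00454) and in medullary collecting duct than in interstitium (2.51, SE 0.60, adjusted p = 0.0101). Irs2 was higher in ureteric tip, at 8.77 to 9.89, than in the other E15.5 components (2.75, SE 0.65, adjusted p = 0.0214). The change of duct against surrounding tissue from E11.5 to E15.5 was -3.66 for Irs4 (SE 0.85, limma adjusted p = 0.0168) and 1.76 for Igf2bp3 (SE 0.46, adjusted p = 0.044). The Irs4 means in medullary collecting duct and interstitium, 6.28 and 6.73, lay under the pooled median of 7.89. Over the settings the Irs4 change ran from -5.75 to -3.11, and its call was lost with the offset at the 10th percentile. Igf2bp3 encodes an RNA-binding protein of Igf2 mRNA and was also higher in medullary collecting duct than in interstitium (1.23, SE 0.36, adjusted p = 0.0401). With 1 array left out, the Igf2bp3 change was lost in 15 of 19 fits and its duct call in 5 of 7. Both were lost with the Igf2bp3 probe set of largest variance, and their lowest values over the settings were 0.36 and 0.29.

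In proximal tubule, Irs1, another such adaptor, was lower (-3.17, SE 0.91, adjusted p = 0.0138) and Foxo1, a transcription factor that insulin and IGF signalling keeps out of the nucleus, was higher (2.28, SE 0.69, adjusted p = 0.0212). Stc2, a secreted inhibitor of PAPP-A, was lower in proximal tubule (-3.42, SE 0.94, adjusted p = 0.01), higher in S-shaped body (3.01, SE 0.71, adjusted p = 0.0192) and higher in ureteric bud than in mesenchyme (2.36, SE 0.77, adjusted p = 0.0484). The bud call of Stc2 was lost in all 12 fits with 1 array left out. Pappa, which encodes PAPP-A, was lower in bud than in mesenchyme (-1.76, SE 0.57, adjusted p = 0.0444). Both means, 5.98 and 7.75, lay under the pooled median of 7.89. The Pappa call was lost in 10 of 12 fits with 1 array left out and under 8 of 14 other settings. Its relative Pappa2 was higher in S-shaped body than in renal vesicle (2.41, SE 0.61, adjusted p = 0.0166), as was Foxo3 (1.46, SE 0.36, adjusted p = 0.0147), while Igf2bp1 was lower (-1.31, SE 0.34, adjusted p = 0.0204). The calls of Foxo3 and Igf2bp1 in this comparison were lost without both doubted libraries. Stc1, the paralog of Stc2, was lower in renal corpuscle (-2.02, SE 0.50, adjusted p = 0.0129). That call was lost without renal corpuscle replicate 4, a doubted library, and without both doubted libraries. Renal vesicle was lower than mesenchyme in Shc1 (-1.97), Foxo3 (-1.62), Irs4 (-1.60) and Insr, the insulin receptor (-1.39), with limma adjusted p between 0.000458 and 0.0259. Each of these renal vesicle calls was lost against laser capture mesenchyme alone. In proximal tubule the Irs1 call was lost without replicate 1, where the arrays read 6.75 and 11.73, and the Foxo1 and Stc2 calls without either array.

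For each gene the most similar genes were sought by the Pearson correlation of log2 values over the 37 arrays, which share components and dates; these correlations are descriptions. Igfbp7 was closest to Fabp4 (0.92), Enpep (0.88) and Hdc (0.87), and Igfbp5 to Traf1 (0.85), Adh1 (0.79) and Tmtc1 (0.75). Igfbp2 was closest to Ovol2 (0.82), Rnf43 (0.80) and Vsnl1 (0.78), Igf1 to Akap12 (0.81), Agtr2 (0.81) and Ldb2 (0.76), and Igfbp1 to Cndp2 (0.79), Tmem238 (0.76) and Aass (0.75). For Igfbp3 they were Emcn, an endothelial marker (0.78), Vamp5 (0.78) and Gimap1 (0.75), for Igfbp6 Loxl1 (0.75), Ptprv (0.70) and Npdc1 (0.70), and for Igfbp4 Pmp22 (0.75), Tubb6 (0.71) and Msn (0.71). The receptors had weaker partners: Igf2r had Tbx19 (0.72), Hipk3 (0.71) and Afap1l2 (0.68), and Igf1r Zfp598 (0.63), Zfp296 (0.62) and Cables1 (0.59). Among the 10 genes themselves the highest correlation was 0.61, between Igfbp6 and Igfbp7, and the lowest -0.44, between Igfbp2 and Igfbp4.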

How the data were processed

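RNA of 9 kidney components was measured on 37 single-colour Affymetrix arrays. Per the labels, the authors amplified the RNA in 2 rounds, and they deposited signal intensity per probe set, computed with GCOS per the submitters' processing notes (version not given in the sources used here). In every deposited column the 2% trimmed mean was 1500, a global scaling; medians ran from 126.78 to 333.89. The number of arrays limits the precision. The table has 45101 probe sets, 64 of them controls; the platform annotation gives 34945 a single gene, 932 several and 9160 none, and only the first kind was tested.

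Intensities plus 34.62 (their 20th percentile) were log2 transformed and quantile normalized (limma 3.58.1, R 4.3.3). Probe sets above the pooled median of 7.89 in at least 2 arrays were kept, and the probe set with the highest mean stood for each gene (15709 genes). Groups came from the labels. A mean per component was fitted over all arrays (28 residual degrees of freedom, eBayes with trend), giving 12 contrasts and an F test; the fit was tested on simulated data. All p-values were adjusted by Benjamini-Hochberg over all genes of a comparison. Other probe sets of the members were tested in the same fit over probe sets.

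All 10 genes were named; of the pathway list, Igf2 and up to 4 called genes per comparison were named (Foxo3 in ureteric bud, the fifth there, was named after its values were seen), and the 3 most correlated genes of each member. The members, lists and doubted libraries were chosen with earlier results of these data known. Marker lists gave the mean of the genes that passed the filter: 7 of 8 for ureteric epithelium, 4 of 6 for podocytes, 7 of 7 for proximal tubule and for endothelium, and 8 of 8 for interstitium. Alternatives were other offsets, filters, probe sets, normalization, array weights, title number or date terms, subsets of arrays and each array left out. Promoter sequences are from RefSeq, GRCm38.p6.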

Additional observations from a re-analysis of the deposited data

Results flagged for a closer look

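In 60 groups of 4 to 10 arrays, 1 array of Igf1 and 1 of Igfbp5 stood apart from the rest of their component by Dixon's criterion, which chance meets in about 1 group in 20. Igf1 read 7.99 in renal corpuscle replicate 3, where the other 3 arrays read 12.35 to 13.16. Igfbp5 read 14.28 in replicate 3 of those labelled S-shaped body, where the other 3 read 11.66 to 12.03; this is the library with podocyte and proximal tubule markers.

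The difference between duct and surrounding tissue was not the same at E15.5 (medullary collecting duct minus medullary interstitium) as at E11.5 (ureteric bud minus mesenchyme) for 5 genes, by the limma interaction term. It changed by -3.49 for Igfbp2 (SE 0.71, adjusted p = 0.00498) and by 3.01 for Igfbp5 (SE 0.80, adjusted p = 0.0464). Among the other pathway genes it changed by -3.66 for Irs4 (adjusted p = 0.0168), 1.31 for Igf2 (adjusted p = 0.0318) and 1.76 for Igf2bp3 (adjusted p = 0.044). The E15.5 means of Irs4, 6.28 in duct and 6.73 in interstitium, lay under the pooled median of 7.89. Of 19 fits with 1 array left out, the call was lost in 17 for Igfbp5, 15 for Igf2bp3, 9 for Igf2 and 2 for Irs4, and in none for Igfbp2.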

How the results depend on the processing

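Of the 17 calls of members, 15 were lost under at least 1 alternative and none changed sign; Igf2bp1 in S-shaped body against renal vesicle was 0.66 with the probe set of largest variance. Median centring moved the median of all genes by up to 0.39, from -0.09 to -0.48 in the change from E11.5 to E15.5, and turned the share of called genes that were higher there from 58.7% to 31.1%.

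The counts of called genes moved as follows. Ureteric tip against medullary collecting duct (56) gave 32 and 87 with offsets at the 10th and 40th percentile, and 36 with median centring. The probe set of largest variance gave 1215 for S-shaped body against renal vesicle (784). Array weights gave 2484 for ureteric bud against mesenchyme, 512 for S-shaped body against renal vesicle, 1014 for tip against collecting duct, 1453 for collecting duct against interstitium, 821 for the change from E11.5 to E15.5 and, against the other E15.5 components, 200 for renal corpuscle, 664 for proximal tubule, 410 for S-shaped body, 2088 for ureteric tip and 953 for collecting duct. Fits of only the components compared gave 2119, 120 and 37 for the first 3 of those comparisons, 574 for the change between days and, against the other E15.5 components, 509 for interstitium, 250 for renal corpuscle, 1505 for proximal tubule, 43 for S-shaped body, 64 for tip and 120 for collecting duct.

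With a fixed term for the date in the title, over the 28 dated arrays, renal vesicle against mesenchyme, S-shaped body against renal vesicle and the F test could not be fitted. Ureteric bud against mesenchyme gave 1 called gene, tip against collecting duct 9, collecting duct against interstitium 85 and the change between days 0 by limma, against 218; against the other E15.5 components, interstitium gave 12, renal corpuscle 3, proximal tubule 337, S-shaped body 0, tip 4 and collecting duct 116. No member was called in that fit, where Igfbp1 in proximal tubule was 4.19 (SE 1.38, adjusted p = 0.144). For ureteric bud against mesenchyme, and so for the change between days, the fit rested on 1 bud and 1 mesenchyme array of the same title date. Igfbp2 was higher in bud by 4.06 there. As a random block, the date (correlation 0.06) moved no count by over 1.5 times.

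Deviations of same-numbered arrays from their component means correlated at a median of 0.01 (-0.23 to 0.22, 105 pairs). For differently numbered arrays the median was 0 (-0.25 to 0.47, 432 pairs). The values show no shared deviation by number, but they cannot exclude pairing, because the deviations were taken from means of few arrays. With the number as a replicate block, renal vesicle against mesenchyme gave 1073, tip against collecting duct 27 and tip against the other E15.5 components 152. Without both doubted libraries, S-shaped body gave 407 against renal vesicle and 444 against the other E15.5 components. Laser-capture mesenchyme alone gave 735 against ureteric bud and 389 against renal vesicle.

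Leaving out 1 array at a time gave 138 to 213 for the change between days (218), 173 to 793 for collecting duct against interstitium (701; lowest without collecting duct replicate 2), 337 to 825 for S-shaped body against renal vesicle (784; lowest without S-shaped body replicate 3) and 13 to 76 for tip against collecting duct (56). Against the other E15.5 components it gave 48 to 388 for collecting duct (299), 409 to 1166 for interstitium (960), 1329 to 2650 for proximal tubule (2391), 450 to 1490 for renal corpuscle (849), 69 to 378 for S-shaped body (229) and 35 to 366 for tip (252). The cause of these moves was not tested. With 2 to 8 arrays a component, the number of arrays limits what can be told apart.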
